A study of Homo sapiens with 4 samples.

Results

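The E2F transcription factors and the pocket proteins that bind them form the switch by which a cell commits to copying its DNA. The genes described here were chosen by name and comprised 7 E2F genes (E2F1, E2F2, E2F3, E2F4, E2F5, E2F6 and E2F8) and 3 pocket protein genes (RB1, RBL1 and RBL2). They were read by 12 of the 47321 probes on an Illumina HumanHT-12 v4 bead array. All 10 genes had a probe, 8 of them 1 probe and E2F6 and RBL1 2 each. Messenger RNA came from OE33, a human esophageal adenocarcinoma cell line, harvested 24 h after transfection of either a miR-223 precursor or a negative control precursor. Both precursors were used at 10 nM with a lipid reagent, so the control cells had also been transfected. There were 2 miR-223 arrays and 2 control arrays of this single line, which the submitters describe as biological replicates. The question was whether genes of the E2F switch differ in level once the miR-223 precursor has been delivered, since E2F1 has been reported elsewhere as a miR-223 target in blood cells.

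The arrays were of like quality, with median raw signals between 114.5 and 118.4 intensity units and a median of 22 beads behind each probe signal. The lowest signal that counted as detected lay between 122.5 and 126.2 units. All 6 epithelial markers examined (EPCAM, CDH1, KRT7, KRT8, KRT18 and KRT19) were detected on every array, and all 3 endothelial markers (PECAM1, VWF and CDH5) on 0 arrays. Of 5 leukocyte markers, CD14 (196.5 to 329.2 units) and CD68 (400.3 to 487.1 units) were detected on every array and the other 3, among them the pan-leukocyte gene PTPRC, on 0. Of 5 fibroblast markers, COL1A1 and COL1A2 were detected on 1 array each and PDGFRB, DCN and LUM on 0. The part of other cell types in the results was not tested. A probe named MIR223 read 100.7 and 110.5 units in miR-223 cells, against 108.3 and 111.7 units in control cells, below detection on every array, so the arrays give no measure of the transfected microRNA. The number of arrays limits the precision of every value.

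E2F proteins bind DNA next to the start sites of genes for DNA replication and cell division, usually as partners of a DP protein. The activating members E2F1, E2F2 and E2F3 turn these genes on in late G1. E2F4 and E2F5 mainly repress them in resting cells, together with the pocket proteins p107 (RBL1) and p130 (RBL2). E2F6 and E2F8 lack a pocket-binding region and repress without pocket proteins. The retinoblastoma protein RB1 holds the activating members silent until cyclin-dependent kinases phosphorylate it, and RB1 function is lost in many carcinomas.

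A microRNA directs silencing through its seed, bases 2 to 8 from its 5′ end, which pairs with sites in messenger RNAs. The annotated mature products of the MIR223 gene are shown because the seed is the part that would have to match a target. The seed is in capitals (RefSeq, GRCh38.p14). Which arm the transfected precursor yielded was not measured.
hsa-miR-223-3p: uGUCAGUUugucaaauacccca
hsa-miR-223-5p: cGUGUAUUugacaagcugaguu
The arms have different seeds, and their coordinates are chrX:66018937-66018958 for the 3p arm and chrX:66018895-66018916 for the 5p arm, both on the plus strand. Sites for these seeds in the E2F messenger RNAs were not analysed here.

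Several E2F genes are themselves known targets of E2F proteins, which places E2F motifs close to their start sites. RefSeq windows running from 250 bases before to 50 bases after a start site were at hand for 8 of the 10 genes, of which the window listed for RB1 lies 172699 bases from the start of that gene. The windows were searched on both strands for the E2F motifs TTTCCCGC, TTTGGCGC, TTTCGCGC and TTTGCCGC, and overlapping matches were each counted. At least 1 was held by E2F1, E2F2, E2F3 and RBL1, 4 of the 8 genes, against 3.99% of the 27305 genes with a window. No such letters were found in the windows of E2F4, E2F6, RBL2 or RB1. The last 70 bases before the start of 5 genes are given 5′ to 3′ on the gene's strand, with E2F motifs in capitals, to show the 4 genes that hold a motif beside E2F4, which does not (RefSeq, GRCh38.p14).
E2F1: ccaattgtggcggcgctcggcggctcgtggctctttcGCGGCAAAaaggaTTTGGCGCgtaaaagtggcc
RBL1: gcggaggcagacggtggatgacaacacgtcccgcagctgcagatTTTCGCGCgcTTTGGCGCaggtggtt
E2F2: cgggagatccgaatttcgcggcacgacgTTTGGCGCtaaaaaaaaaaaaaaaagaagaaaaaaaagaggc
E2F3: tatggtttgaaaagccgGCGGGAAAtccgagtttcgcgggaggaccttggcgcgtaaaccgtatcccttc
E2F4: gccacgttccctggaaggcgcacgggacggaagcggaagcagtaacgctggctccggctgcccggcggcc
These stretches are chr20:33686386-33686455 (minus strand), chr20:37095998-37096067 (minus strand), chr1:23531234-23531303 (minus strand), chr6:20401809-20401878 (plus strand) and chr16:67192085-67192154 (plus strand). E2F1 holds a motif on each strand, 33 and 20 bases before its start, and RBL1 holds a pair on its own strand that begin 26 and 16 bases before its start.

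None of the 10 genes passed the test for a difference between miR-223 and control cells. Each gene was tested on its brighter probe, and all 10 were detected on all 4 arrays. In limma, 0 of 10 passed at an adjusted p under 0.05, against 0% of the 14330 genes tested on the array. At an unadjusted p under 0.05 the count was again 0 of 10, against 5.43% of all genes and 5.46% of all probes. Groups did not overlap for 1 gene with both miR-223 arrays above the control arrays, against 16.3% of all genes, and for 1 gene with both below, against 17.2%. The members' limma p-values lay between 0.179 and 0.921. Adjusted over all probes they lay between 0.986 and 0.999. Differences below are miR-223 minus control in log2 intensity after background correction, with limma's SE and 95% interval, and a missed threshold does not show that a level was equal.

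**Figure D1:**
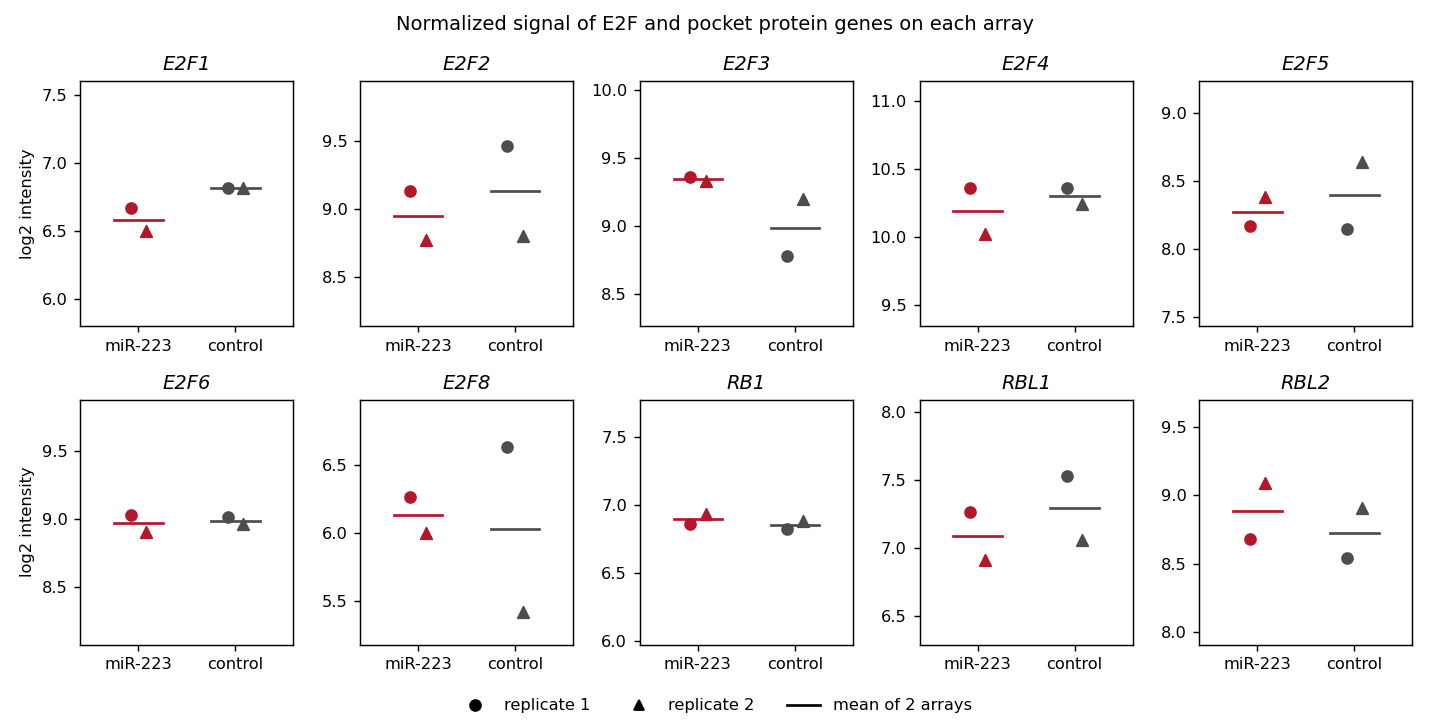
Normalized log2 intensity of each gene's brighter probe on the 4 arrays, miR-223 on the left and control on the right of each panel, with circles for replicate 1, triangles for replicate 2 and a bar at the mean of 2 arrays. Every panel spans the same height, and the groups separate for E2F1 (miR-223 below control) and for E2F3 (miR-223 above control) but overlap for the other 8 genes.

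E2F1, the activator reported as a miR-223 target in blood cells, read 185.2 and 189 raw units in miR-223 cells, against 195.2 and 217.6 units in control cells. After normalization this was 6.67 and 6.50 in log2 intensity in miR-223 cells, against 6.82 and 6.82 in control cells. The groups did not overlap, with miR-223 the lower, and 33.5% of all genes separated in one direction or the other. The difference was -0.23 ± 0.22 (SE, n = 2 each), with an interval from -0.73 to 0.27, and limma gave an adjusted p = 0.999. The interval reaches a 1.66-fold lower and a 1.2-fold higher level in miR-223 cells. A difference at least this large in either direction was seen for 36.4% of all genes. The probe's signal was not far above the lowest detected signals, and the bead standard error of its raw signal was 17.3 and 19.4 units on the miR-223 arrays, against 13.3 and 18.9 units on the control arrays. Without background correction the difference stood at -0.12, and without miR-223 replicate 2 it stood at -0.15.

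E2F3, another activator, was the gene with the highest difference among the 10. Its log2 intensity was 9.36 and 9.33 in miR-223 cells, against 8.78 and 9.20 in control cells. The miR-223 arrays lay close together and above both control arrays, of which replicate 1 was the lower. The difference was 0.35 ± 0.24 (SE, n = 2 each), with an interval from -0.20 to 0.89, and limma gave an adjusted p = 0.986. Without control replicate 1 it stood at 0.14, and without control replicate 2 at 0.56. A difference at least as large was seen for 19.5% of all genes. E2F2, the remaining activator, was at 9.13 and 8.77 in miR-223 cells, against 9.46 and 8.80 in control cells. Its groups overlapped, with replicate 2 the lower array in both. The difference was -0.18 ± 0.28 (SE, n = 2 each).

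Among the E2F factors that repress together with pocket proteins, E2F4 was at 10.36 and 10.02 in miR-223 cells, against 10.36 and 10.24 in control cells. E2F5 was at 8.17 and 8.38 in miR-223 cells, against 8.15 and 8.64 in control cells. Both genes had overlapping groups, and in both the replicate 1 arrays of the groups nearly coincided while the replicate 2 array was lower in miR-223 cells. The difference of E2F4 was -0.11 ± 0.23 (SE, n = 2 each), and that of E2F5 was -0.12 ± 0.25 (SE, n = 2 each).

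E2F6, which represses as part of a Polycomb-related complex, had the smallest difference of the 10, at -0.022 ± 0.22 (SE, n = 2 each). Its log2 intensity was 9.03 and 8.90 in miR-223 cells, against 9.01 and 8.96 in control cells, so that the 4 arrays lay close together. The interval, from -0.52 to 0.47, reaches 1.43-fold lower and 1.39-fold higher levels. The second E2F6 probe read between 99.2 and 112.2 raw units and was detected on 0 of the 4 arrays. E2F8, a repressor that binds DNA without a DP partner, had the widest spread, with 6.26 and 6.0 in miR-223 cells, against 6.63 and 5.42 in control cells. The miR-223 arrays lay between the control arrays, which were 182.5 and 139.2 in raw units, close to the detection limit. The difference of E2F8 was 0.11 ± 0.37 (SE, n = 2 each). It stood at 0.71 without control replicate 1 and at -0.50 without control replicate 2.

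RB1, which encodes the retinoblastoma protein, was detected on every array, at 6.86 and 6.93 in miR-223 cells, against 6.82 and 6.88 in control cells. The 4 arrays nearly coincided, and the difference was 0.047 ± 0.21 (SE, n = 2 each), with an interval from -0.45 to 0.54. That interval reaches a 1.36-fold lower and a 1.45-fold higher level. RBL1, which encodes p107, was at 7.26 and 6.91 in miR-223 cells, against 7.53 and 7.06 in control cells. Its groups overlapped, and the difference was -0.21 ± 0.26 (SE, n = 2 each). The second RBL1 probe read 119.1 and 106.6 raw units in miR-223 cells, against 113.7 and 107 units in control cells, and was detected on 0 arrays. RBL2, which encodes p130, was at 8.68 and 9.09 in miR-223 cells, against 8.54 and 8.91 in control cells. Its difference was 0.16 ± 0.25 (SE, n = 2 each), and its groups overlapped.

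**Figure D2:**
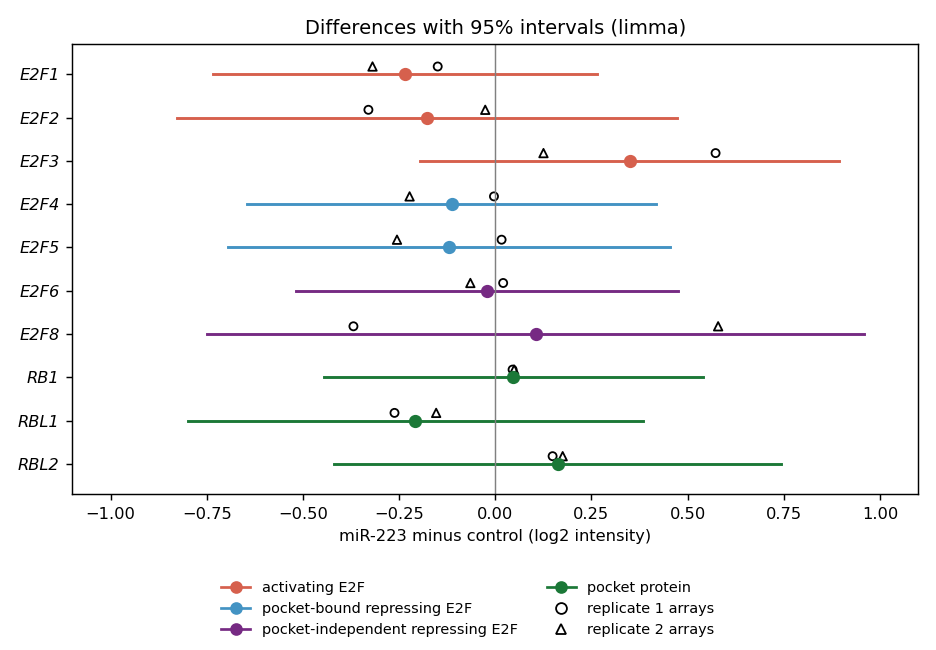
Difference of each gene (filled point, miR-223 minus control in log2 intensity) with its 95% interval from limma, coloured by role, and the difference within replicate 1 (open circle) and replicate 2 (open triangle) above it. All 10 intervals cross 0, from E2F1 at -0.23 to E2F3 at 0.35.

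Set side by side by role, the activating members had a median difference of -0.18 over 3 genes, with E2F3 on the opposite side of 0 from E2F1 and E2F2. The median was -0.12 for E2F4 and E2F5, 0.042 for E2F6 and E2F8, and 0.047 for the 3 pocket proteins. Over the 10 genes it was -0.068, and over all genes it was 0. Of the 10 differences 6 were negative, against 50.0% of all genes. The 4 genes with an E2F motif were likewise on both sides, with E2F1, E2F2 and RBL1 negative and E2F3 positive. The authors' deposited table averages the probes of a gene and gives log2 fold changes of its own. There E2F1 stood at -0.12, E2F2 at -0.15, E2F3 at 0.30 and RBL1 at -0.08. Without background correction the differences here were likewise -0.12 for E2F1, -0.15 for E2F2 and 0.30 for E2F3. For RBL1 that difference was -0.13 on the tested probe, while the deposited value also includes the probe detected on 0 arrays.

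Most of these genes differed more between replicate numbers than between precursors. For 8 of the 10, the mean of the replicate 2 arrays differed from that of the replicate 1 arrays by more than the miR-223 arrays differed from the control arrays, against 55.1% of all genes. The exceptions were E2F1 and E2F3. The log2 difference of replicate 2 minus replicate 1 arrays was -0.73 for E2F8, -0.51 for E2F2 and -0.41 for RBL1, and it was 0.39 for RBL2 and 0.35 for E2F5. For these 5 genes, and for E2F4, E2F6 and RB1, the direction between replicate numbers was the same in miR-223 and in control cells. For E2F1 and E2F3 it was not, and the share over all genes was not counted. When each miR-223 array was set against the control array of the same number, 7 of the 10 genes had the same sign in both numbers, against 57.0% of all genes. These were E2F1 (-0.15 and -0.32), E2F2 (-0.33 and -0.026), E2F3 (0.57 and 0.13), E2F4 (-0.0034 and -0.22), RB1 (0.045 and 0.049), RBL1 (-0.26 and -0.15) and RBL2 (0.15 and 0.18).

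**Figure D3:**
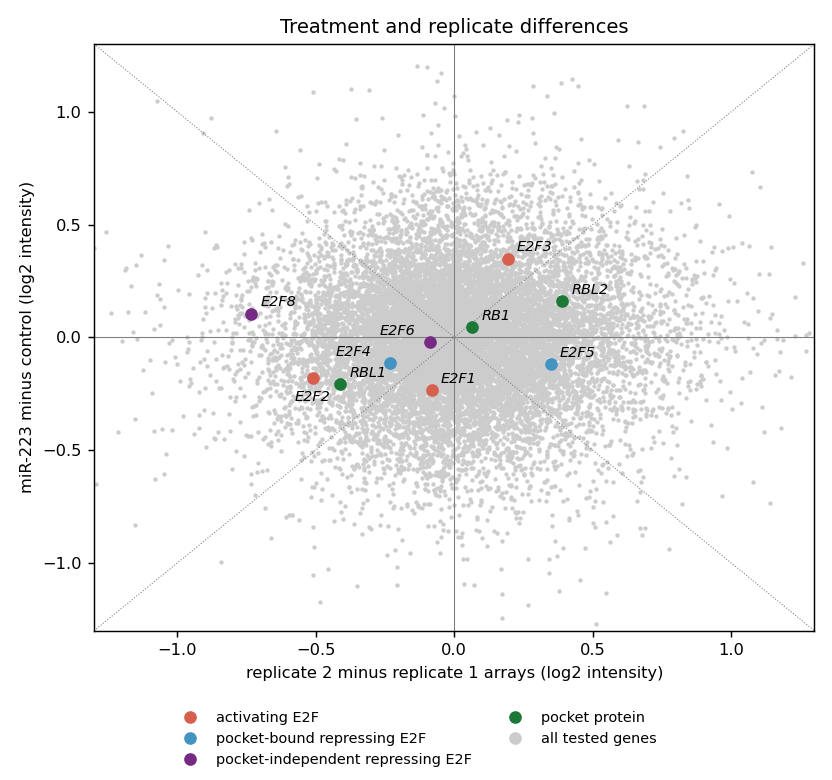
Difference between miR-223 and control (vertical) against the difference between replicate 2 and replicate 1 arrays (horizontal), both in log2 intensity, for the 10 genes by role and all tested genes in grey (genes beyond 1.3 on either axis are not drawn). Points outside the dotted diagonals to the left and right, such as E2F8 at -0.73 and E2F2 at -0.51, differed more between replicate numbers than between treatments.

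Genes whose 4 values lay closest to those of E2F1, each taken relative to its own mean, were ITGB5, MYL6, AACS, RPS6P1 and PAK2. Their distance from E2F1 over the 4 arrays lay between 0.0154 and 0.031 in log2 units, and 124 of 11342 genes lay within 0.1. The median distance was 0.461, and the likeness is given as a description over 4 arrays.

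The other genes of the switch were taken from 8 lists covering E2F's partners, regulators and targets. Of 85 listed genes, 78 were tested, each on its brightest tested probe, and counts below are of these probes. In limma 0 of these passed at an adjusted p under 0.05, and 2 passed at an unadjusted p under 0.05, with RYBP lower (as were 2.84% of all genes) and BCL2L11 higher (as were 2.59%) in miR-223 cells. RYBP, a Polycomb component found with E2F6, was at 8.0 and 7.35 in miR-223 cells, against 8.41 and 8.32 in control cells. Its groups did not overlap, with miR-223 the lower, and the difference was -0.69 ± 0.27 (SE, n = 2 each) with a limma adjusted p = 0.909. BCL2L11, which encodes the apoptosis activator BIM, was at 5.70 and 5.74 in miR-223 cells, against 5.11 and 5.12 in control cells. Its difference was 0.60 ± 0.21 (SE, n = 2 each), with a limma adjusted p = 0.909, and on this dim probe it stood at 0.20 without background correction. Among the 46 other tested probes of the listed genes, 3 had an unadjusted limma p under 0.05, against 5.46% of all probes, and they belong to CCNE1, MAX and UNG.

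DP proteins dimerize with most E2Fs, and both DP genes had values near 0. TFDP1 was at 11.44 and 11.38 in miR-223 cells, against 11.52 and 11.09 in control cells, a difference of 0.10 ± 0.24 (SE, n = 2 each), and a second probe gave -0.02. TFDP2 stood at 0.013 ± 0.24 (SE), with a second probe at -0.10. The MuvB complex joins p107 or p130 with E2F4 to silence cell cycle genes, and joins MYBL2 later in the cycle to activate them. The 6 tested genes of this list had a median of -0.081, and those with the smallest p were LIN52 (0.30 ± 0.25, SE), LIN54 (-0.37 ± 0.34, SE) and LIN9 (0.17 ± 0.22, SE). Without background correction LIN52 stood at 0.11, LIN54 at -0.20 and LIN9 at 0.12.

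Cyclins and their kinases release E2F by phosphorylating pocket proteins. The list of these also holds CDC25A, which is neither a cyclin nor a kinase gene (0.15 ± 0.24, SE). Of 9 tested genes 6 had a negative difference, against 50.0% of all genes, with a median of -0.19. Both miR-223 arrays lay under both control arrays for 5 of the 9, against 17.2% of all genes, and above both for 0. CCNE2, a cyclin E gene that E2F activates, was at 7.44 and 7.22 in miR-223 cells, against 7.83 and 7.6 in control cells, a difference of -0.38 ± 0.23 (SE, n = 2 each). CCND3, a D-type cyclin gene, stood at -0.31 ± 0.22 (SE). CCNE1 stood at -0.30 ± 0.24 (SE) on its brightest probe and at 0.04, -0.68 and -0.30 on the others, so its probes disagreed. None of the 9 brightest probes had a limma p under 0.05, while the CCNE1 probe at -0.68 did.

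Inhibitors of these kinases keep pocket proteins active, and their 6 tested genes pointed both ways, with a median of -0.26. CDKN2D, which encodes p19-INK4d, was at 6.29 and 6.18 in miR-223 cells, against 6.67 and 6.72 in control cells, a difference of -0.46 ± 0.22 (SE, n = 2 each) that stood at -0.23 without background correction. CDKN2A, the gene of p16-INK4a and ARF, was at 11.47 and 12.02 in miR-223 cells, against 11.38 and 11.16 in control cells. Its difference was 0.47 ± 0.26 (SE, n = 2 each), and a second probe gave 0.45. CDKN1B, which encodes p27, stood at -0.46 ± 0.33 (SE) with a second probe at -0.28.

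In the E2F6 repressor complex the 7 tested genes had a median of -0.063. After RYBP, the genes with the smallest p were RING1, a ubiquitin ligase subunit, at 0.30 ± 0.22 (SE), and MAX, the DNA-binding partner of MYC and MGA, at -0.35 ± 0.36 (SE) on its brightest probe. MAX had other probes at 0, 0.42 and 0.56, so its direction depended on the probe, and the last of these had an unadjusted limma p under 0.05. Corepressors recruited by pocket proteins had a positive difference for 8 of 10 genes, against 7166 of the 14330 genes tested, with a median of 0.17. Both miR-223 arrays lay above both control arrays for 5 of the 10, against 16.3% of all genes, and below both for 0. Those with the smallest p were the chromatin remodelling ATPase SMARCA4 (0.35 ± 0.24, SE), the histone deacetylase HDAC1 (0.31 ± 0.22, SE) and the histone methyltransferase SUV39H1 (0.22 ± 0.24, SE). None of the 10 had a limma p under 0.05. Of the 5 that separated, RBBP8 stood at 0.14 with a second probe at -0.16.

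The target genes that E2F activates for S phase did not lie to one side. Their list also holds CCNB1, a mitotic cyclin gene (0.15 ± 0.23, SE). Of 32 tested genes 19 had a positive and 13 a negative difference, with a median of 0.027, and 0 had a limma p under 0.05 on the brightest probe. Another probe of UNG, a uracil-DNA glycosylase gene, stood at 0.58 with an unadjusted limma p under that threshold, while its brightest probe stood at -0.10 and the others at 0.22 and -0.06. E2F motifs were found in the start-site windows of 18 of the 28 listed genes that had one, or 64.3%, against 3.99% of all genes with a window. The list was made of known E2F targets, so this share is not a result of these arrays. Genes with small p included GINS1 and POLA2. GINS1, of the replicative helicase, stood at -0.47 ± 0.26 (SE) and at -0.17 without background correction. Its probe was dim, with a mean raw signal of 125.9 units, close to the lowest detected signals. POLA2, of DNA polymerase alpha, stood at 0.38 ± 0.22 (SE). Among genes through which E2F1 is known to promote apoptosis, 6 were tested, with a median of 0.26. Of these 4 were positive and 2 negative, against 50.0% negative of all genes. Beside BCL2L11, PMAIP1, which encodes NOXA, stood at 0.26 ± 0.22 (SE), with a second probe at 0.26. Both miR-223 arrays lay above both control arrays for 7 of 32 S phase genes and 3 of 6 apoptosis genes, against 16.3% of all genes. They lay below both for 5 and 1 of these, against 17.2%. The MuvB list had 1 gene above and 0 below, and the inhibitors and the E2F6 complex each had 1 above and 1 below. Neither DP gene separated.

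**Figure D4:**
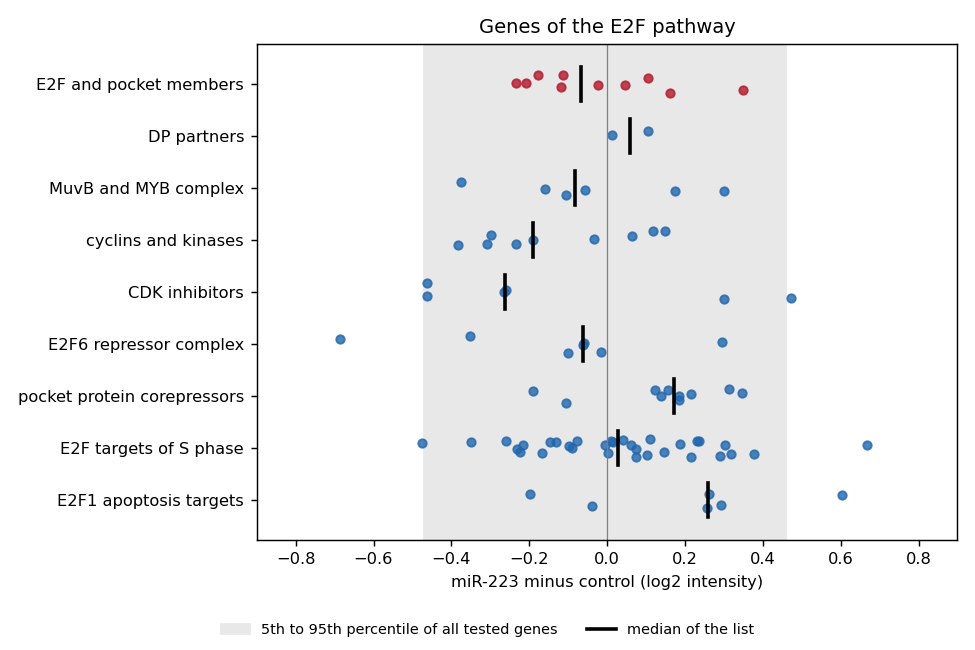
Difference of each tested gene (points, miR-223 minus control in log2 intensity) for the 10 E2F and pocket protein genes and the 8 pathway lists, with the median of each list as a black bar and the 5th to 95th percentile of all tested genes, from -0.47 to 0.46, in grey. All 10 E2F and pocket protein genes lie inside the grey range, while RYBP (-0.69) and BCL2L11 (0.60) are among the points outside it.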

How the data were processed

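Per the file headers, the deposited files give, for every probe and array, a bead signal (linear intensity, neither normalized nor background subtracted), its standard error over beads, the bead count and a detection p-value. The authors also deposited intensity values after quantile normalization and, by gene, log2 levels with a log2 fold change and a signed fold score that was not used. The submitters' processing notes name GenomeStudio, BeadStudio and Partek.

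Bead signals were corrected by normexp with negative controls inferred from the detection p-values (offset 16), quantile normalized and taken to log2, following neqc of limma 3.58.1 under R 4.3.3. The test took 18629 of 47321 probes, those detected (p under 0.05) on 2 or more arrays, among them 10 of the 12 probes described. Group was the only term in lmFit and eBayes (two-sided, Benjamini-Hochberg over all tested probes). The code of the fit was run on simulated arrays drawn from its own fitted spread. Those held no replicate effect, so the run does not bear on such an effect in the real arrays. The brightest tested probe stands for a gene. This correction widens the differences of dim probes relative to none. Array names were updated through RefSeq (GRCh38.p14): a current symbol fitted 30525 probes and an older synonym 3163, while 13633 stayed under the file's own name. CDK1 was not matched, because the older name on the array is a synonym of more than 1 gene. Probe positions are not given in the sources used here.

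Members and lists were chosen with earlier results of these data known. Named were every member, the 3 genes of each list with the smallest p (all where a list had 3 or fewer) and the 5 genes nearest to E2F1 by Euclidean distance. Among these, 2 genes of the lists are not reported here. Locus and clone names were passed over in that search. CDC25A, CCNB1, RBBP8 and UNG were named besides, for their place in a list or for their other probes. Alternatives changed background correction, normalization, filter, variance model and block, and left out each array.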

Additional observations from a re-analysis of the deposited data

How the results depend on the processing

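In the 13 alternatives fitted with limma, 0 of the 10 genes passed the adjusted threshold, and 0 of the 78 pathway genes did (72 were tested with the stricter filter). Averaging a gene's tested probes left the 10 genes' values as they were, since each had 1 tested probe. E2F1 (-0.32 to -0.15 when 1 array was left out), E2F3 and RB1 kept their direction in all of these. The other 7 genes changed sign at least once, 11 of 12 times when an array was left out, where a lone array is assumed to vary like the other group: E2F2 ranged from -0.51 to 0.15, E2F4 from -0.28 to 0.058, E2F5 from -0.36 to 0.12, E2F6 from -0.088 to 0.043, E2F8 from -0.50 to 0.71, RBL1 from -0.44 to 0.024 and RBL2 from -0.039 to 0.36. With median scaling E2F6 stood at 0.012. The cause was not tested. Over the whole array 0 probes passed limma in the setting reported (1017 at an unadjusted p under 0.05). Leaving out 1 array could move a gene far, as VCF1 stood at -4.19 without control replicate 2, against -1.69 with all arrays.

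The design text speaks of biological replicate experiments, but no label ties arrays of the same replicate number to a shared experiment. Across probes, the deviations of such arrays from the mean of their group had a correlation of 0.352. With the replicate block alone limma called 0 probes, and E2F1 stood at -0.234 (adjusted p = 0.715). With the replicate block and a robust variance trend limma called 188 probes, 71 higher and 117 lower. None of them was the brightest tested probe of a member or a pathway gene. The lowest adjusted p there was 0.424 among members (E2F3) and 0.0983 among pathway genes (RYBP). The cause of these calls was not tested.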
